A study of Mus musculus with 6 samples.

Results

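Fibroblasts of the brain surround its larger vessels and form the meninges, and 34 genes known to mark them or to build their matrix were followed here, of 53465 genes counted. The members were taken by symbol, and each of the 34 symbols matched 1 Ensembl gene. The libraries were made from total RNA of cells labelled as brain endothelial cells of the whole cortex, and how these cells were isolated is not stated in the labels. Each of the 6 libraries came from male mice aged 8 to 12 weeks of the genotype tie2-Cre; ai9; rpl22HA/HA. The control group (PBS libraries 1, 2 and 4) had received phosphate buffered saline, and the treated group (PTZ libraries 1, 2 and 4) pentylenetetrazol, a convulsant that blocks GABA-A receptors; neither dose nor time is given. Both groups thus carried the Cre driver, the ai9 reporter of Cre activity and the tagged ribosomal protein Rpl22. Tie2-Cre is active in endothelium and in part of the blood lineage, and brain fibroblasts are not its usual target. Whether each library is a separate animal is not in the labels, so the p-values refer to the spread among these 6 libraries, part of which may be technical.

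Fibroblasts of the leptomeninges and of the perivascular space secrete the fibrous matrix of the vessel sheath. Chains of collagens I, III and V assemble into fibrils, small leucine-rich proteoglycans coat the fibrils and set their diameter, and collagen VI forms beaded filaments between them. Enzymes such as the lysyl oxidase Lox cross-link the fibrils. Leptomeningeal fibroblasts and the neighbouring arachnoid cells also carry transporters of small molecules and secrete Igf2 and prostaglandin D2 synthase, the product of Ptgds. Several members have other sources in brain: Pdgfra also marks oligodendrocyte precursors, Ptgds is also made by oligodendrocytes and choroid plexus, and Mgp and Bgn are also made by vessel wall cells.

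The RefSeq promoter table (GRCm38.p6) held 24 of the 34 members. The stretches of 250 bases before the start of 5 of them are shown. They belong to fibrillar collagens or to genes whose PTZ and PBS libraries did not overlap. No annotated exon lies in them, and their RefSeq start lies within 2 bases of the GENCODE M21 gene start. A second Postn start, at -1842 bases from the GENCODE start, met all but the last condition. Its window, with neither TATAAA nor GGGCGG, is not shown. All are printed 5′ to 3′ on the gene's own strand, and capitals mark TATAAA (the TATA box) and GGGCGG (the GC box) on either strand. Windows lie at chr1:45311288-45311537 (plus strand, Col3a1), chr2:27886175-27886424 (plus, Col5a1), chr3:54360857-54361106 (plus, Postn), chr17:79715062-79715311 (minus, Cyp1b1) and chrX:73483351-73483600 (plus, Bgn). The Col5a1 window lies within 2810430I11Rik, a transcript on the opposite strand, outside its exons, and no annotated gene covers the other 4.
Col3a1: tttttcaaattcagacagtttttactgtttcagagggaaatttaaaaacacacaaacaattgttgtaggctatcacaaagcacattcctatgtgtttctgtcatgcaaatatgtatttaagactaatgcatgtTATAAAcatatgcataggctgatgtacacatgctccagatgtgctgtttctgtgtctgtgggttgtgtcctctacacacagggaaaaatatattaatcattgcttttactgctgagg
Col5a1: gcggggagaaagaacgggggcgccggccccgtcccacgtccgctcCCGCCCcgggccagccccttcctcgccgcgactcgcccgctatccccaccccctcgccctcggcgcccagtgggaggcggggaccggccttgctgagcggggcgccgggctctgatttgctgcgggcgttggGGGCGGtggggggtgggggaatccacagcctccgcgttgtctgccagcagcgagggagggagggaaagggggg
Postn: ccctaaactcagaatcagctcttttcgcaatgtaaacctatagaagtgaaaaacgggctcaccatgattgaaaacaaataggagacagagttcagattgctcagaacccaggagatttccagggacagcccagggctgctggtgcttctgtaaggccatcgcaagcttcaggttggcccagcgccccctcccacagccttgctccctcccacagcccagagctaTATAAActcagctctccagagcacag
Cyp1b1: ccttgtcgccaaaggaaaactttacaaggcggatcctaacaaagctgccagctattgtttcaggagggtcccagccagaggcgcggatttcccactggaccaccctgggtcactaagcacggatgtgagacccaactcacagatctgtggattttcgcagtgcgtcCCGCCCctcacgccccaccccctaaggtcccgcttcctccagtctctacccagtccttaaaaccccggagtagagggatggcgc
Bgn: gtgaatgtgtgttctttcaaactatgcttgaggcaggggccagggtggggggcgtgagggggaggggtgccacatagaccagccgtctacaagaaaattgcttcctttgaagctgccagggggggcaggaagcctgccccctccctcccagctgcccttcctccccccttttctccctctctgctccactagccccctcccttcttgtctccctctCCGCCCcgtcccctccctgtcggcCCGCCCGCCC
The 2 fibrillar collagen windows differed widely in composition. The Col3a1 window had 35.2% G and C with 1 TATAAA at position -117 and no GGGCGG, while the Col5a1 window had 76.4% G and C with GGGCGG at positions -205 and -73, the first base of each match counted back from the start. Postn had TATAAA at -26, Cyp1b1 had GGGCGG at -84, and Bgn had it at -34, -10 and -6, where the last 2 overlap. Among all 32851 windows of this length TATAAA occurred in 12.4% and GGGCGG in 32.7%, and the median share of G and C was 52.4%. CCAAT (the CCAAT box), present in 33.8% of windows, and TGANTCA (the AP-1 motif), present in 6.75%, were searched on both strands and occurred in none of the 5. A match describes these letters only.

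Reads assigned to genes summed to between 11107481 and 15406967 per library, and levels are counts per 1e6 reads (CPM) after TMM scaling of the library totals. The 12 endothelial markers summed to between 14400 and 26604 CPM, and the 6 fibroblast markers, all of them members, to between 84.1 and 269 CPM. These sums cover unlike numbers of genes and are not scaled for length, so they do not measure the share of either cell type. PTZ library 1 stood apart: 9.34% of its reads lay in no annotated feature, where the other libraries had 2.99% to 5.19%.

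Of the 34 members, 30 had enough reads to be tested, and Slc47a1, Slc22a2, Twist1 and Igf2 did not. The fibrillar collagens, Dcn and Pdgfra stood higher in PTZ libraries 1 and 4 than in any PBS library, while PTZ library 2 stayed near or within the PBS range. Ptgds was high in PTZ library 4 alone, Mgp in PTZ library 2, and Osr1 was nearly absent from all PTZ libraries. No member passed the test: edgeR's quasi-likelihood test called 0 of 30 members, and 0.0% of all 13768 genes, at an adjusted p under 0.05. The smallest adjusted p over all genes was 0.283, and 528 genes were higher and 465 lower before adjustment (p under 0.05). DESeq2 called 4 members, Col1a1, Col1a2, Serping1 and Osr1, and 0.552% of the 13756 genes to which it gave an adjusted p. The same 4 were called by edgeR without the filter on low counts, with 0.348% of 34777 genes.

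Among the 30 members tested, 26 had a positive log2 fold change of PTZ against PBS, where 52.7% of all genes did. Their median was 0.90, beside 0.03 over all genes tested. The members, and the lists of other genes used later, were chosen with earlier results of these data known. Their shares beside those of all genes are therefore descriptive only. With edgeR's p before adjustment under 0.05, 7 members stood higher (3.83% of all genes) and 1 lower (3.38%). In 6 members every PTZ library exceeded every PBS library (7.3% of all genes): Col1a2, Bgn, Fbln2, Serping1, Cyp1b1 and Postn. Osr1 alone lay below in all (7.04%). PTZ libraries 1 and 4 both exceeded every PBS library in 17 of the 30, as they did in 15.5% of all genes, whereas PTZ library 2 exceeded every PBS library in 8 and lay below every PBS library in 8 others, near the shares over all genes (28.1% and 27.3%). Without PTZ library 2, 13 of 31 members tested, instead of 7 of 30, stood higher before adjustment. The share of all genes at that p was not counted in that fit, so the rise cannot be read as particular to the members. Without PTZ library 4 the median was 0.54, beside 0.02 over all genes.

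**Figure D1:**
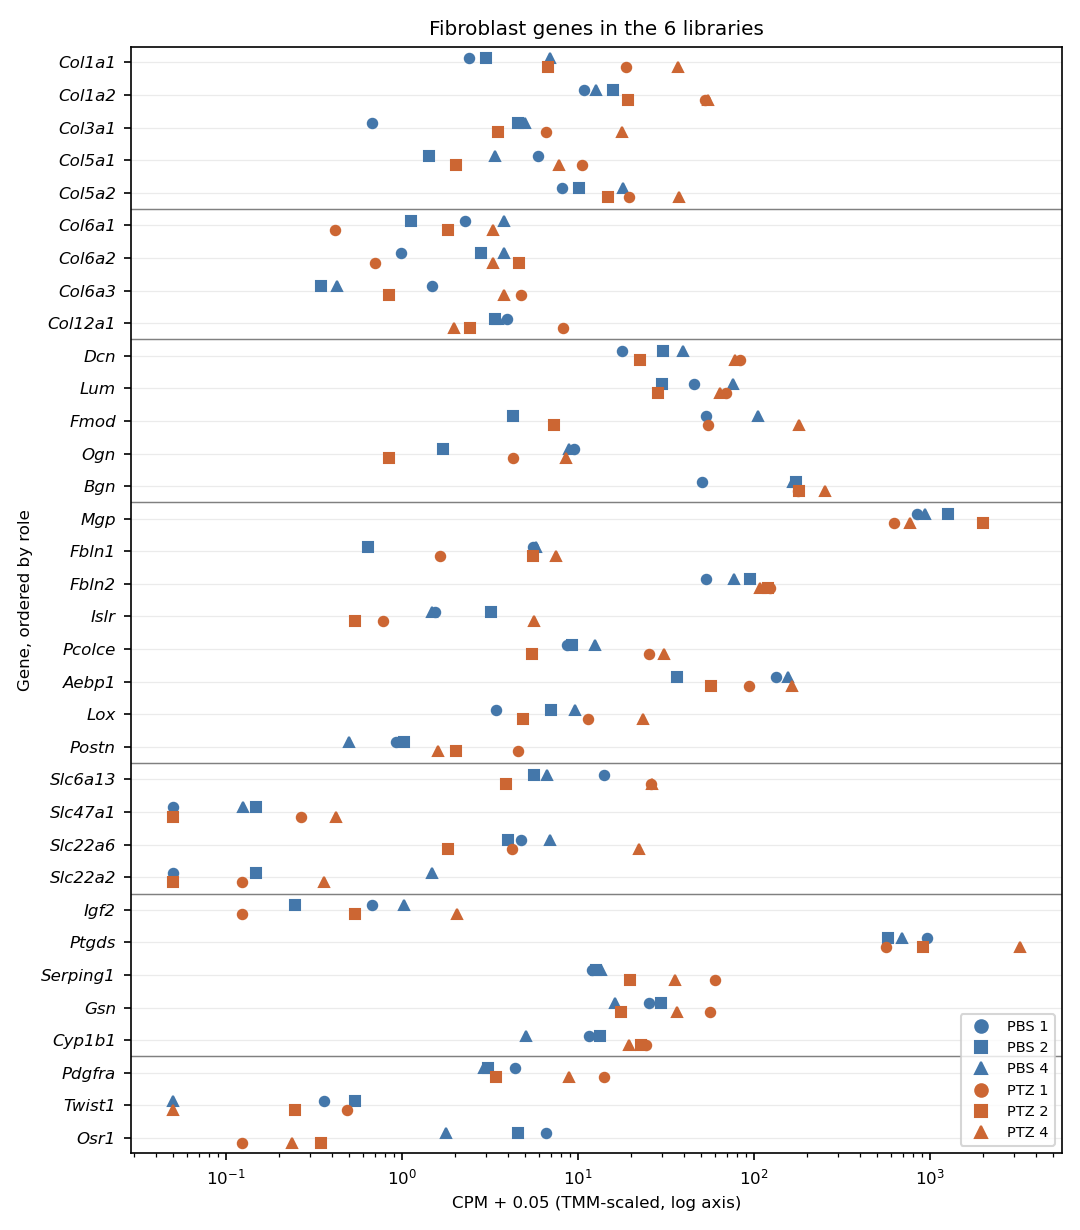
Levels of the 34 fibroblast genes in each library, as CPM plus 0.05 on a log axis, with blue for PBS, orange for PTZ and a marker shape for the library number. In all 5 fibrillar collagens the PTZ 1 circle and the PTZ 4 triangle lie to the right of every PBS point, and in Osr1 all PTZ points lie to the left.

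Fibrillar collagens gave the most uniform pattern. Col1a1 (ENSMUSG00000001506, GRCm38 chr11:94936224-94953042, plus strand), the main chain of collagen I, stood at 2.37, 2.95 and 6.93 CPM in PBS libraries 1, 2 and 4 and at 18.8, 6.73 and 37.2 CPM in the PTZ libraries. PTZ library 2 lay just under the highest PBS library, so the groups overlapped. The log2 fold change was 2.36 (SE 0.65, edgeR adjusted p = 0.535). Col1a2 (ENSMUSG00000029661, chr6:4504814-4541544, plus strand), the partner chain of collagen I, stood at 10.8, 15.8 and 12.7 CPM in PBS and at 52.5, 19.2 and 54.5 CPM in PTZ. Each PTZ library exceeded each PBS library, library 2 by a small margin, and the log2 fold change was 1.69 (SE 0.40, edgeR adjusted p = 0.446). Both chains passed in DESeq2 (adjusted p = 0.0343 for Col1a1 and 0.0203 for Col1a2) and in edgeR without the filter on low counts (adjusted p = 0.0026 and 0.0040). Over the alternatives the adjusted p ran from 0.0026 to 0.918 for Col1a1 and from 0.0040 to 0.991 for Col1a2.

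Col3a1, the chain of collagen III found with collagen I in extensible tissue, stood at 0.623, 4.53 and 4.97 CPM in PBS and at 6.57, 3.46 and 17.7 CPM in PTZ (log2 fold change 1.46, SE 0.83). The low value of PBS library 1, 10 reads, widened its spread. Col5a1 and Col5a2 encode collagen V, which starts fibrils of collagen I. Col5a1 stood at 5.85, 1.38 and 3.32 CPM in PBS and at 10.4, 1.98 and 7.80 CPM in PTZ (0.93, SE 0.76). Col5a2 stood at 8.03, 10.04 and 17.9 CPM in PBS and at 19.6, 14.8 and 37.6 CPM in PTZ (1.001, SE 0.44). In both genes the PTZ 2 library sat inside the PBS range and the other PTZ libraries above it. Col3a1 and Col5a2 are neighbours on chromosome 1, on opposite strands with 24614 bases between them.

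The 5 fibrillar chains together summed to 27.7, 34.7 and 45.8 CPM in PBS and to 108, 46.2 and 155 CPM in PTZ. The groups did not overlap, but PTZ library 2 barely exceeded PBS library 4. Between libraries with the same number the sum was 3.89, 1.33 and 3.38 times higher in PTZ for numbers 1, 2 and 4. Relative to 100 reads of the endothelial gene Pecam1 there were 5.83, 5.69 and 8.06 fibrillar collagen reads in PBS and 19.4, 6.95 and 22.1 in PTZ, so PTZ libraries 1 and 4 stood out on this scale too, and PTZ library 2 lay within the PBS range. In a bulk library more cells of a type and more RNA per cell cannot be told apart.

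The other collagens did not share this pattern as a group. Col6a1, Col6a2 and Col6a3 encode the chains of collagen VI. Col6a3 stood at 1.43, 0.295 and 0.377 CPM in PBS and at 4.67, 0.792 and 3.74 CPM in PTZ (log2 fold change 2.097, SE 1.01). Col6a1 stood at 2.24, 1.08 and 3.77 CPM in PBS and at 0.365, 1.78 and 3.24 CPM in PTZ (-0.39, SE 0.94). PTZ library 1 was the highest of the 6 for Col6a3 and the lowest for Col6a1, although their products join in 1 trimer. Col6a2, which neighbours Col6a1 on chromosome 10 at 85161 bases on the same strand, stood between 0.934 and 3.77 CPM in PBS and between 0.657 and 4.55 CPM in PTZ (0.18, SE 0.90), and it too was lowest in PTZ library 1. Col12a1, a collagen that binds to fibril surfaces, stood at 3.92, 3.35 and 3.47 CPM in PBS and at 8.17, 2.38 and 1.93 CPM in PTZ (0.22, SE 0.73), with PTZ library 1 above PBS and the others below. The fold changes of Col6a1, Col6a2 and Col12a1 turned sign when single libraries were left out. All 4 of these genes were thin, at 3 to 112 reads per library.

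Small leucine-rich proteoglycans split into genes with and without the collagen pattern. Dcn (ENSMUSG00000019929, chr10:97479609-97518143, plus strand), decorin, binds collagen I fibrils. It stood at 17.9, 30.5 and 39.6 CPM in PBS and at 83.0, 22.4 and 78.4 CPM in PTZ (log2 fold change 1.07, SE 0.46, edgeR adjusted p = 0.690). PTZ libraries 1 and 4 were above every PBS library and PTZ library 2 was within their range. Lum, lumican, also coats fibrils and lies 46984 bases from Dcn on the same strand. It stood at 45.4, 30.1 and 75.9 CPM in PBS and at 69.3, 28.6 and 64.0 CPM in PTZ (0.10, SE 0.39), so that its groups overlapped almost fully. Per Lum read there were 0.393, 1.01 and 0.522 Dcn reads in PBS and 1.20, 0.782 and 1.23 in PTZ. The difference between the fold changes of these neighbours was not tested.

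Fmod, fibromodulin, varied mostly by library number and little by group. It stood at 53.6, 4.23 and 105 CPM in PBS libraries 1, 2 and 4 and at 54.6, 7.22 and 181 CPM in the PTZ libraries with the same numbers (log2 fold change 0.58, SE 1.03). Both libraries numbered 2 were lowest and both numbered 4 highest. Ogn, osteoglycin, was likewise lowest in the libraries numbered 2, at 9.40, 1.67 and 8.89 CPM in PBS and 4.23, 0.792 and 8.49 CPM in PTZ (-0.56, SE 0.86). Bgn, biglycan, stood at 50.4, 173 and 167 CPM in PBS and at 179, 180.0 and 253 CPM in PTZ (0.65, SE 0.40). Its groups did not overlap, although PBS libraries 2 and 4 came close to PTZ libraries 1 and 2 and only PBS library 1 stood far below.

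Among proteins that process or bind the matrix, Fbln2 and Postn had groups that did not overlap. Fbln2, fibulin 2, a glycoprotein of elastic fibres and basement membranes, stood at 53.5, 95.4 and 76.8 CPM in PBS and at 124, 120.0 and 109 CPM in PTZ (log2 fold change 0.65, SE 0.24, edgeR adjusted p = 0.648). Its PTZ libraries were close together, with an SD of 7.75 CPM against 21.0 CPM in PBS. Postn, periostin, a matricellular protein of collagen-rich tissue, stood at 0.872, 0.984 and 0.452 CPM in PBS and at 4.52, 1.98 and 1.56 CPM in PTZ (1.80, SE 0.88), on 6 to 62 reads per library.

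Pcolce, which speeds removal of the procollagen C-propeptide, and Lox were also highest in PTZ libraries 4 and 1. Pcolce stood at 8.59, 9.25 and 12.5 CPM in PBS and at 25.5, 5.44 and 30.9 CPM in PTZ (log2 fold change 1.03, SE 0.55). Lox stood at 3.36, 6.99 and 9.57 CPM in PBS and at 11.4, 4.85 and 23.3 CPM in PTZ (0.99, SE 0.61). In each of these genes PTZ libraries 1 and 4 lay above every PBS library, and PTZ library 2 lay within the PBS range for Lox and under it for Pcolce. Aebp1, a collagen-binding protein, showed no such order, at 134, 36.4 and 156 CPM in PBS and 93.4, 57.0 and 165 CPM in PTZ (-0.05, SE 0.50), and was lowest in the libraries numbered 2. Fbln1, fibulin 1, ranged from 0.591 to 5.73 CPM in PBS and from 1.61 to 7.49 CPM in PTZ (0.30, SE 0.87). Islr, a secreted leucine-rich repeat protein, ranged from 1.43 to 3.15 CPM and from 0.495 to 5.55 CPM (0.17, SE 1.02). Annotated exons of Islr and Islr2 overlap, as do those of Pcolce and Fbxo24, and reads in such overlaps may be counted for neither gene. Islr2 had 2 to 30 reads per library and Fbxo24 0 to 4.

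Set beside the collagens, Mgp was highest in PTZ library 2 and Ptgds and Igf2 in PTZ library 4. PTZ library 1 was lowest for all 3. The summed transporters were highest in PTZ libraries 4 and 1, as the fibrillar collagens were. That sum was mostly Slc6a13 in PTZ library 1 (26.1 of 30.5 CPM), where Slc22a6 lay within the PBS range. Mgp (ENSMUSG00000030218, chr6:136872435-136875823, minus strand), matrix Gla protein, an inhibitor of calcification, stood at 842, 1274 and 942 CPM in PBS and at 627, 2012 and 766 CPM in PTZ (log2 fold change 0.16, SE 0.43). PTZ library 2, the lowest PTZ library for the fibrillar collagens, was the highest of all for Mgp, and PTZ library 1 the lowest. The endothelial marker sum was also highest in PTZ library 2 (26604 CPM) and next highest in PBS library 2 (21554 CPM), as Mgp was. So were the sums of red cell markers (11652 and 10825 CPM) and of neuron markers (470 and 462 CPM). Slc2a1 (8498 CPM) and Ly6c1 (8478 CPM) made most of the endothelial sum in PTZ library 2, and Stmn2 (420 CPM) most of the neuron sum. Both of these endothelial genes had the order of the sum, as did Cldn5 and Erg. Not every endothelial marker followed. Pecam1, Cdh5 and Kdr were highest in PTZ library 4, and Tek (337 CPM) and Slco1a4 (644 CPM) were lowest in PTZ library 2. The cell source of the Mgp reads was not tested. The log2 fold change of Mgp was -0.59 without PTZ library 2.

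Ptgds (ENSMUSG00000015090, chr2:25466709-25470046, minus strand) stood at 969, 576 and 693 CPM in PBS and at 559.6, 908 and 3235 CPM in PTZ (log2 fold change 1.07, SE 0.56, edgeR adjusted p = 0.710). A single library, PTZ 4, made the difference, since PTZ library 1 was the lowest of the 6. Without PTZ library 4 the log2 fold change was -0.03. Markers of other cells that make Ptgds had these levels in PTZ library 4: the oligodendrocyte list summed to 1500 CPM, against 1233 to 1507 CPM in PBS, and the choroid plexus and ependyma list to 6.55 CPM, against 2.61 to 9.12 CPM in PBS. Each sum was carried mostly by 1 gene, Mal (1312 CPM in that library) and Kl (5.87 CPM). Of the defining markers Mog stood at 2.12 CPM there and 0 to 0.0990 CPM in the other libraries, Ttr at 0 there and Kcne2 at 0 in all libraries. The part of these cells in the Ptgds values was not tested. Ptgds and Mgp together supplied between 55.3% and 83.9% of the summed CPM of all members in a library, so a plain sum over the list mainly follows these 2 genes.

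**Figure D2:**
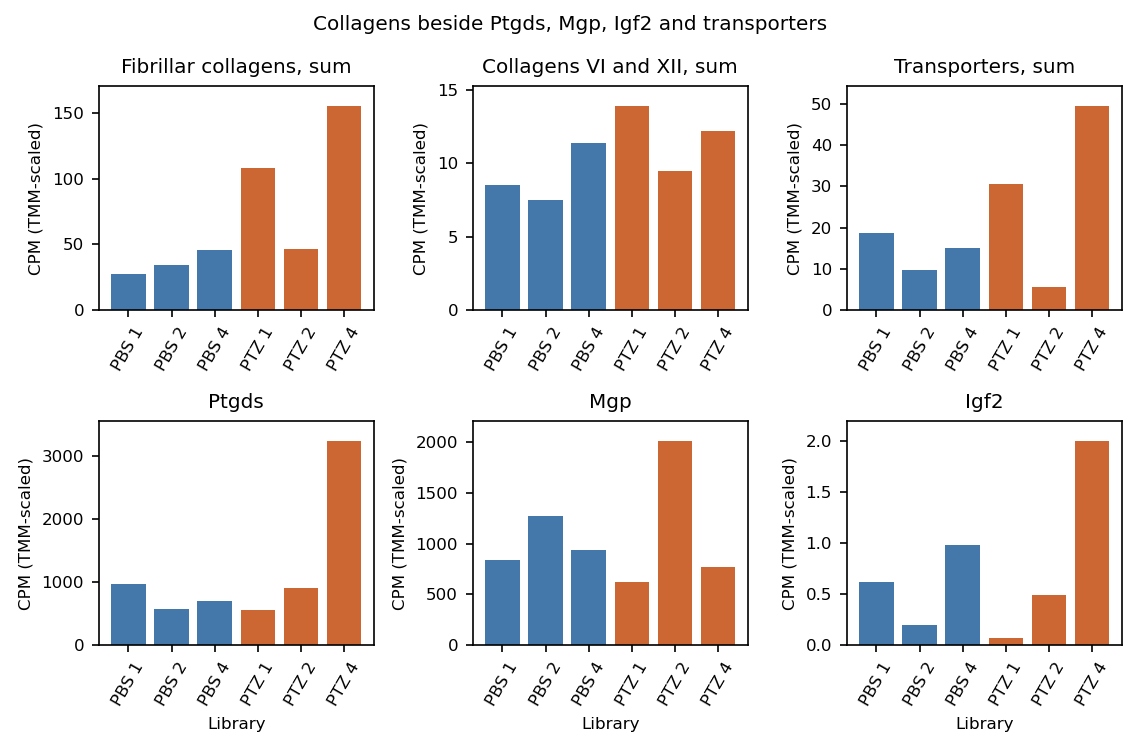
Summed CPM of the 5 fibrillar collagens, of collagens VI and XII and of the 4 transporters, and CPM of Ptgds, Mgp and Igf2, as 1 bar per library (blue PBS, orange PTZ). PTZ libraries 1 and 4 stand out for fibrillar collagens and for transporters, a sum led by Slc6a13. PTZ library 4 stands out for Ptgds and Igf2, and PTZ library 2 for Mgp.

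Igf2, a growth factor of meninges and choroid plexus, had only 10, 2 and 13 reads in PBS and 1, 5 and 32 reads in PTZ, or 0.197 to 0.979 CPM and 0.0730 to 1.997 CPM. The pooled ratio of PTZ to PBS was 1.51, with a 95% counting interval of 0.886 to 2.60 (exact binomial, covering counting error only). As with Ptgds, PTZ library 4 was highest and PTZ library 1 lowest. Gm49394, whose exons overlap those of Igf2 on the same strand, had 0 reads in all libraries, and Igf2os on the opposite strand had 12, 4 and 0 in PBS and 0 in PTZ.

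Transporters of the meningeal barrier were led by Slc6a13 (ENSMUSG00000030108, chr6:121300227-121337733, plus strand), a GABA and taurine transporter. It stood at 13.9, 5.61 and 6.63 CPM in PBS and at 26.1, 3.86 and 26.4 CPM in PTZ (log2 fold change 1.102, SE 0.65). The PTZ libraries thus held both the highest values and the lowest. Slc22a6, the organic anion transporter OAT1, stood at 4.73, 3.94 and 6.86 CPM in PBS and at 4.16, 1.78 and 22.3 CPM in PTZ (0.87, SE 0.81). Only PTZ library 4 was high, as for Ptgds, and without it the log2 fold change was -0.80. Slc47a1, a multidrug and toxin extruder, had 0, 1 and 1 reads in PBS and 3, 0 and 6 in PTZ. A count of 0 allows up to 0.187 CPM in PBS library 1 and 0.297 CPM in PTZ library 2. Its pooled ratio of PTZ to PBS was 4.46 (95% counting interval 0.923 to 42.4). Slc22a2, an organic cation transporter, had 20 reads in PBS, 19 of them in library 4, and 6 in PTZ.

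Of the other secreted or intracellular members, Serping1 and Cyp1b1 had groups that did not overlap. Serping1 (ENSMUSG00000023224, chr2:84765387-84775444, minus strand), the C1 inhibitor that restrains complement and contact activation, stood at 12.0, 12.7 and 13.4 CPM in PBS and at 59.8, 19.6 and 35.4 CPM in PTZ. The PBS libraries were close to each other, and every PTZ library was above them. The log2 fold change was 1.59 (SE 0.39, edgeR adjusted p = 0.459), and it passed in DESeq2 (adjusted p = 0.0343) and in edgeR without the low-count filter (0.0133), with a range of 0.0133 to 0.991 over the alternatives. Cyp1b1 (ENSMUSG00000024087, chr17:79701537-79715061, minus strand), a cytochrome P450 that oxidises retinoids and steroids, stood at 11.6, 13.4 and 5.05 CPM in PBS and at 24.3, 22.9 and 19.3 CPM in PTZ (1.15, SE 0.40, edgeR adjusted p = 0.648). Here PTZ library 2 was as high as the other PTZ libraries, unlike in the collagens. Gsn, gelsolin, which severs actin filaments, stood at 25.5, 29.5 and 16.1 CPM in PBS and at 55.9, 17.4 and 36.3 CPM in PTZ (0.63, SE 0.41), again with PTZ library 2 within the PBS range.

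Pdgfra, the PDGF receptor of fibroblasts, stood at 4.36, 3.05 and 2.86 CPM in PBS and at 14.1, 3.36 and 8.80 CPM in PTZ (log2 fold change 1.35, SE 0.62). Pdgfra also belongs to the list of 9 oligodendrocyte precursor markers, which summed to 6.56 to 10.04 CPM in PBS and to 7.72 to 33.9 CPM in PTZ. The other tested genes of that list both had positive values, as Pdgfra did. Cspg4, which pericytes also express, stood at 3.11, 5.71 and 0.678 CPM in PBS and 18.4, 0.297 and 8.36 CPM in PTZ (1.52, SE 1.096), and Ptprz1 at 1.37, 0.689 and 0.301 CPM and 0.730, 3.36 and 3.62 CPM (1.69, SE 0.98). Vcan, not tested, reached 2.19 CPM in PBS library 4 and 5.68 CPM in PTZ library 4 and 0.125 to 0.396 CPM elsewhere. Olig1, Olig2, Sox10, Gpr17 and C1ql1 stood at 0 to 0.527 CPM. The part of such cells in the Pdgfra values was not tested. Twist1, a transcription factor of mesenchyme, had 10 reads in PBS and 8 in PTZ, with none in either library numbered 4.

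Osr1 (ENSMUSG00000048387, chr12:9570116-9581500, plus strand), a zinc finger transcription factor of mesenchyme, went the other way. It had 105, 46 and 23 reads in PBS libraries 1, 2 and 4 and 1, 3 and 3 reads in the PTZ libraries, or 6.54, 4.53 and 1.73 CPM against 0.0730, 0.297 and 0.187 CPM. The groups did not overlap, and each PTZ library was under each PBS library. With at most 3 reads in a PTZ library, Osr1 passed the filter on low counts only through PBS, the group where it stood high. The size of its fold change thus rests on PTZ counts near the floor. Pooled over libraries its level was 25.1 times higher in PBS (95% counting interval 11.9 to 63.3, which leaves out the spread between libraries), and the fitted log2 fold change was -4.49 (SE 0.9995, edgeR adjusted p = 0.446). It passed in DESeq2 (adjusted p = 0.0064) and in edgeR without the low-count filter (0.0319), and its adjusted p ran from 0.0064 to 0.918 over the alternatives. The overlapping transcript 1700022H16Rik on the opposite strand had 0 reads in all libraries.

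**Figure D3:**
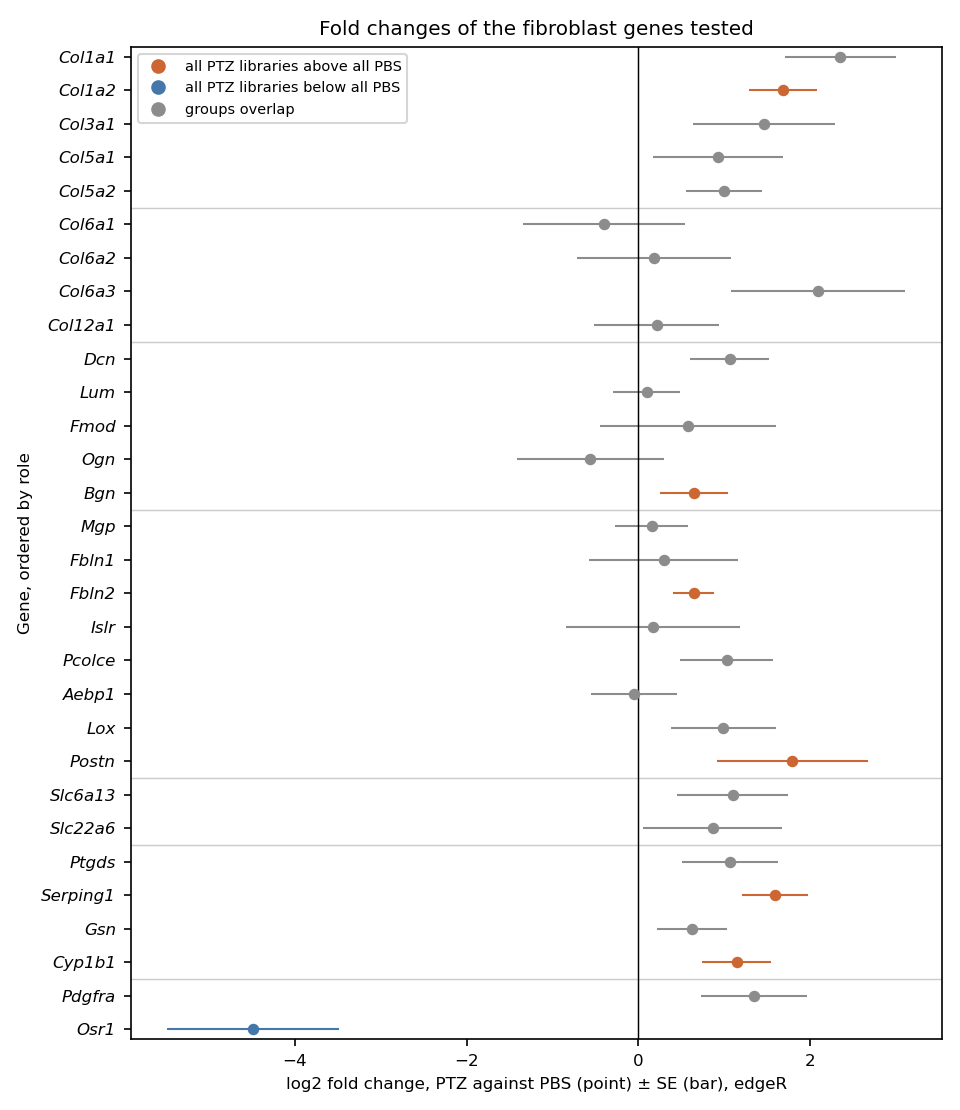
Log2 fold changes of PTZ against PBS (points) with their SE (bars) for the 30 members tested in edgeR, ordered by role, with colour for genes whose groups did not overlap. The 26 positive values and the large negative value of Osr1 can be seen, and the bars of Fmod, Islr and the collagen VI genes are among the widest.

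Levels can be compared between genes only per length of transcript. The length used here was that of all annotated exons of a gene joined, 12426 bases for Col1a2. It can exceed the length of the transcript present, so the order of genes is approximate. Per kilobase of annotated exon, Mgp and Ptgds led in both groups, at 859 ± 190 and 452 ± 122 CPM per kilobase in PBS (SD, n = 3) and 956 ± 642 and 951 ± 882 in PTZ. In PBS their ranges did not overlap, while in PTZ they did. Aebp1, Bgn, Lum and Fmod followed at 26.8, 21.3, 20.6 and 16.4 CPM per kilobase in PBS, and these neighbours in the order did not differ beyond their spread (SD 9.53 to 15.7). Col1a2 (1.06 ± 0.204), Col5a2 (1.25 ± 0.546), Col1a1 (0.622 ± 0.379), Col5a1 (0.414 ± 0.264) and Col3a1 (0.344 ± 0.244) lay far below. In PTZ, Col1a2 and Col1a1 stood at 3.39 ± 1.60 and 3.18 ± 2.34. Slc47a1 was last in PBS, at 0.017.

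Genes that support this matrix but are no members were read from lists. Over all genes tested, 52.7% had a positive value, with 3.83% higher and 3.38% lower before adjustment (edgeR p under 0.05). Of 22 tested genes for folding, processing and cross-linking of collagen, 16 had positive log2 fold changes (median 0.21), with 1 higher and none lower before adjustment (p under 0.05). A single gene of 22 at that p is near the share over all genes. That gene was Mia3, needed for export of large procollagens, at 74.6, 57.5 and 58.4 CPM in PBS and 112, 86.5 and 74.4 CPM in PTZ. The list's sum, 4671 to 6789 CPM in PBS and 3697 to 7391 CPM in PTZ, did not follow the fibrillar collagens, as PTZ library 1 was lowest and PTZ library 2 highest. Of 13 genes of elastic fibres and fibronectin matrix 11 were positive (median 0.65), with 4 higher and none lower at that p. Fn1, fibronectin, stood at 336, 466 and 463 CPM in PBS and at 846, 583 and 563 CPM in PTZ with no overlap (log2 fold change 0.66, SE 0.27), and Ltbp1, which stores latent TGF-beta in the matrix, at 5.04, 5.41 and 7.61 CPM and at 21.8, 10.7 and 7.92 CPM (1.16, SE 0.49).

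In the TGF-beta and PDGF list 15 of 20 tested genes were positive (median 0.24), with 3 higher and none lower at that p. The shares over all genes (52.7%, 3.83% and 3.38%) stand beside this list and those after it too. Skil, an inhibitor of Smad signalling that TGF-beta induces, stood at 18.9, 29.7 and 24.0 CPM in PBS and at 71.7, 38.9 and 49.3 CPM in PTZ (log2 fold change 1.14, SE 0.30). Tgfb3, a TGF-beta ligand, stood at 0.809, 1.77 and 2.86 CPM and at 16.3, 3.86 and 8.11 CPM (2.38, SE 0.73). In both genes the groups did not overlap, and neither passed over all genes in edgeR. Among 23 further fibroblast genes tested 19 were positive (median 0.77), 5 higher and 1 lower at that p. Aldh1a2, the retinoic acid synthesis enzyme of meningeal fibroblasts, stood at 1.87, 1.48 and 0.904 CPM in PBS and at 18.9, 8.51 and 27.1 CPM in PTZ (3.67, SE 0.57), with no overlap and the smallest adjusted p of all genes in edgeR, 0.283. Igfbp2, which binds Igf2, stood at 2.49, 1.57 and 4.29 CPM in PBS and at 19.2, 2.97 and 27.0 CPM in PTZ (2.55, SE 0.74), with PTZ library 2 again inside the PBS range. Cldn11, a claudin of arachnoid barrier cells and of myelin, was the lower one, at 24.7, 29.4 and 18.8 CPM in PBS and 17.1, 12.4 and 9.30 CPM in PTZ (-0.91, SE 0.34). All 10 tested genes of the Igf system had positive values (median 0.55), with 1 of them, Igfbp2, at that p.

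Summed markers of mural cells were, like the summed fibrillar collagens, highest in PTZ libraries 1 and 4. The pericyte list (12 of 12 tested genes positive, 4 with a p under 0.05 before adjustment, median 1.15) summed to 168, 197 and 303 CPM in PBS and to 598, 186 and 671 CPM in PTZ. The smooth muscle list (7 of 7 positive, 2 at that p, median 1.15) summed to 517, 1109 and 1195 CPM in PBS and to 1952, 1122 and 1795 CPM in PTZ. Over all genes tested, 52.7% were positive and 3.83% higher at that p. In both sums, as in the sum of the 6 fibroblast markers, PTZ libraries 1 and 4 were above every PBS library. PTZ library 2 was within the PBS range or, for fibroblasts, under it. Single markers did not all follow. Acta2 did, at 440 and 386 CPM in PTZ libraries 1 and 4 and at most 231 CPM in PBS. Abcc9 in PTZ library 4 (2.06 CPM) lay under every PBS library, and Mylk was highest in PTZ library 2 (466 CPM). None of the pericyte genes was at 0 in every library. The 8 microglial markers all had negative values, and their sum was 2440 to 2917 CPM in PBS and 1588 to 2412 CPM in PTZ. The part of these other cells, and of the share of unannotated reads in PTZ library 1, in the fibroblast values was not tested.

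**Figure D4:**
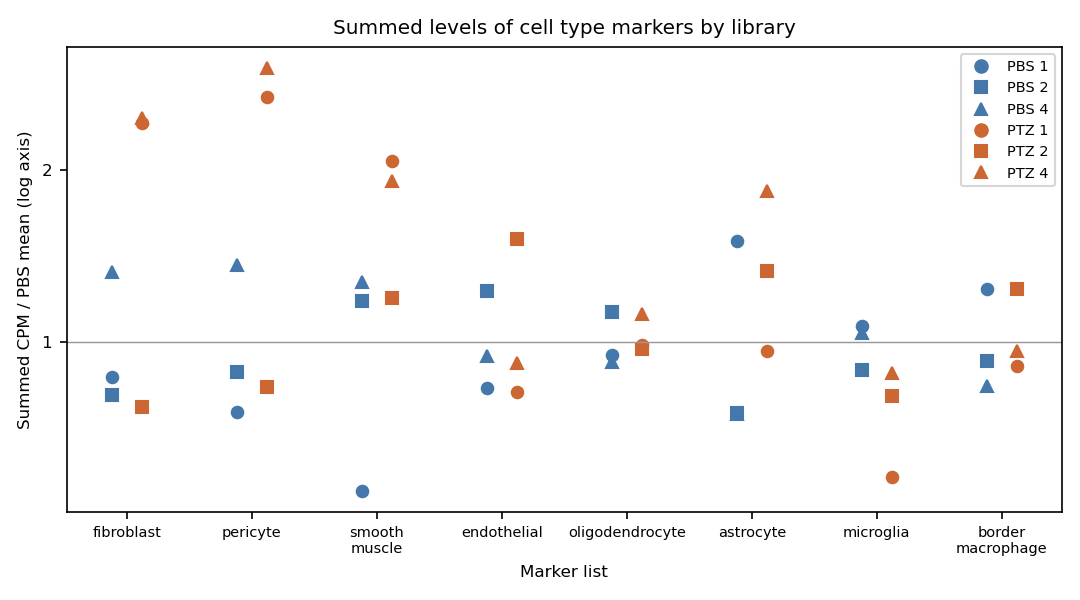
Summed CPM of marker genes of 8 cell types in each library, divided by the mean of the PBS libraries, on a log axis (blue PBS, orange PTZ, marker shape for the library number). PTZ libraries 1 and 4 lie above every PBS library for fibroblast, pericyte and smooth muscle markers, and the endothelial sum is highest in PTZ library 2.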

How the data were processed

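RNA of brain endothelial cells from 6 mouse cortex libraries (3 PBS, 3 PTZ) was read from the matrix of raw counts per Ensembl gene that the authors deposited, per the file headers. TopHat2 2.1.1, HTSeq, edgeR and GRCm38 are named in the submitters' processing notes without a role, and nothing names the annotation used or whether counting was by strand. The 5 summary rows that name no gene, 16.1% to 22.9% of reads, were left out. A second, scaled signal for each library was deposited by the authors, namely the count divided by 1 factor per library (100% of values whole within 0.01 reads), used only as an alternative scaling. Symbols and coordinates came from GENCODE M21 (GRCm38).

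The filter filterByExpr, with a minimum count of 10 and a minimum total of 15, retained 13768 genes. TMM factors ran from 0.864 to 1.14. Tests were run in R 4.3.3 with edgeR 4.0.16 (quasi-likelihood test, group as the factor, 2-sided, Benjamini-Hochberg over all genes, threshold 0.05). SE came from the fold change and its statistic, and the biological coefficient of variation was 0.470. Alternatives used DESeq2 1.42.0, limma 3.58.1 (voom), other scalings, no filter, a replicate block and each library left out. The test was tried on simulated data. Deviations from group means correlated at 0.191, 0.238 and 0.246 between libraries sharing a number in their titles. The reported fit left this pairing out, so its SE and p include the spread between pairs. Only the replicate block took the pairing in. No 2 libraries of a group agreed within sampling noise (chi-square per degree of freedom 48.8 to 116). All 34 members were named, and from each other list only the up to 4 genes with the smallest unadjusted p. Members and lists were chosen with earlier results of these data known. Intervals and floors (3 reads for a count of 0) cover counting error only.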

Additional observations from a re-analysis of the deposited data

How the results depend on the processing

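No direction of the median changed: it ran from 0.54 (without PTZ replicate 4) to 1.08 (without PTZ replicate 2) over the 12 alternatives. Members with a positive value numbered from 20 of 30 tested, without PTZ replicate 4, to 28 of 34 tested, without the low-count filter. The share of all genes with a positive value was not counted in the alternatives. Genes called higher went from 0 to 77 without the low-count filter, 53 in DESeq2 and 1 in limma-voom, and from 0 to 8 when single libraries were left out (8 without PBS replicate 2). Genes called lower went from 0 to 44 without the filter and 23 in DESeq2. Members called went from 0 to 4 in each of these 2 settings, the same 4 genes: Col1a1, Col1a2, Serping1 and Osr1. Members higher at an unadjusted p under 0.05 numbered 14 without the filter (of more members tested) and from 5 to 13 when single libraries were left out, the 13 without PTZ replicate 2. The shares of all genes at that p in these settings were not counted. The median over all genes shifted by under 0.1 under the other scalings.

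With the replicate block, edgeR called 0 genes higher and 0 lower, and no call changed. Its unadjusted p was 0.055 for Fmod (0.587 in the reported fit) and 0.00079 for Col1a1 (0.0045). For Col1a2 it went the other way, to 0.0032 from 0.0016. Under that pairing Col12a1 stood at -0.087, Mgp at -0.024, Islr at -0.58 and Aebp1 at 0.063 (log2 fold change), and in limma-voom the same 4 genes at -0.10, -0.0074, -0.26 and 0.058, each of the opposite sign to the reported value. With single libraries left out, signs also turned in Col6a1 (range -1.15 to 0.090), Col6a2 (-0.37 to 0.65), Col12a1 (-0.73 to 0.56), Lum (-0.20 to 0.48), Fmod (-0.82 to 1.45), Mgp (-0.59 to 0.45), Ptgds (-0.028 to 1.47), Fbln1 (-0.23 to 0.71), Islr (-1.70 to 0.61), Slc22a6 (-0.80 to 1.32) and Aebp1 (-0.54 to 0.27). The other 19 of 30 members kept their sign in every alternative. The cause of these changes was not tested. Low counts limit the collagen VI genes, Postn, Islr, Osr1 in PTZ (1 to 3 reads per library) and the 4 untested members. Single libraries were also low for Fbln1 (6 reads in PBS library 2), Ogn (8 in PTZ library 2) and Col3a1 (10 in PBS library 1).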
